A study of Mus musculus with 3 samples.

Results

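Apolipoproteins and the genes that load, move and unload lipid outside cells were examined in cells of the mouse vestibule, the part of the inner ear that senses balance. The set holds 8 genes of the 57180 in the deposited table, chosen by symbol: Apod, Apoe, Clu, Apoc1, Abca1, Abcg1, Lpl and Pltp. Each symbol matched 1 row. The data are 3 libraries of 1 group, cells of wild-type genotype described as resembling black balls. In the labels they are macrophages and immune cells, whereas the title of the series names melanocytes, which make pigment. According to the labels' protocols the study took 18 cells out of 9 mice (3 mice in each group), and RNA was copied from its poly(A) tail and amplified with the SMART-Seq HT kit. The series as given here holds no control group. The sources used here do not give the strain and age of the mice or how the cells were divided among libraries, so the p-values speak of the variation among 3 libraries, part of which may be technical.

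Lipids travel between cells on particles held together by apolipoproteins. The transporters ABCA1 and ABCG1 export cholesterol and phospholipid from cells onto such particles, phospholipid transfer protein moves phospholipid between them, and lipoprotein lipase releases fatty acids from their triglyceride. Apolipoprotein E is a ligand by which lipoprotein receptors take particles up, and macrophages and glia are known to secrete it. Apolipoprotein D differs from the rest of the set in being a lipocalin, a small barrel-shaped carrier, and Schwann cells and fibroblasts are among its known sources. Clusterin, also called apolipoprotein J, is a secreted chaperone. The nuclear receptors LXR alpha and LXR beta, encoded by Nr1h3 and Nr1h2, are known to switch on Abca1, Abcg1, Apoe, Apoc1, Pltp and Lpl in macrophages when cells hold excess sterol.

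Promoter windows, which run from 250 bases before to 50 after a gene's start, were found for 4 of the 8 genes (Abca1, Apod, Apoe with several windows, and Pltp) in RefSeq sequence of build GRCm38.p6. The windows were searched on both strands for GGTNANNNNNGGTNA, the shared letters of the paired half-sites that LXR binds. The motif was chosen with the Abca1 window in view. Of 32851 windows of 300 bases in the table, 236, or 0.718%, hold it. The Abca1 window (chr4:53159846-53160145, minus strand) holds 1 match, on the strand opposite to the gene, 67 to 53 bases before the start. The Abca1 window is shown because it is the window among these genes that holds the motif, which is in capitals.
Abca1 promoter: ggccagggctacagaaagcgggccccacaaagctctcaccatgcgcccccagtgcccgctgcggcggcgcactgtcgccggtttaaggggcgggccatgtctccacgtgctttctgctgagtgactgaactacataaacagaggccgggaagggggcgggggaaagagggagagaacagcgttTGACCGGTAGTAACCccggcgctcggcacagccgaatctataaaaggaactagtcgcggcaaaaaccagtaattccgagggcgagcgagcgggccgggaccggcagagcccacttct
The windows of Apod, Apoe and Pltp hold no match, which says only that these letters are not in those windows. No binding was measured, so the match is a description of the sequence.

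The libraries held between 14095521 and 18460546 counts. A count of 3, taken as the floor of detection, corresponds to between 0.163 and 0.213 CPM (counts scaled to the library total). Reads carried no molecular identifiers, so this floor and the intervals below cover counting error only. Levels are given in TPM, the deposited FPKM rescaled to the same total in every library, when genes are compared, and all errors are SD with n = 3. Values of single libraries are always in the order replicate 1, replicate 2, replicate 3. Of all genes tested, 37.6% stood above 1 TPM by limma's test, and 50.5% of the protein-coding ones, against which the counts of marker genes are to be read. Of 18 macrophage markers, 15 did, led by Lyz2 (4616 ± 1632 TPM) and Ctss (907 ± 294 TPM), with Cd163 lowest at 0.612 ± 0.454 TPM. Of 15 melanocyte markers, 9 did, led by Dct (250 ± 19.6 TPM) and Mlana (232 ± 33.8 TPM), with Mc1r lowest at 1, 0 and 0 counts; the summed melanocyte markers ranged from 582 to 715 TPM. Of the other marker lists, 6 of 11 Schwann cell and glia markers stood above (S100b and Pmp22 highest, Foxd3 lowest), 8 of 10 fibroblast markers (Coch and Otos highest, Postn lowest), 11 of 12 markers of supporting and non-sensory epithelium (Cldn9 and Gjb6 highest, Tectb lowest), 2 of 10 endothelial markers (Emcn and Kdr highest, Tie1 at 0 counts) and 5 of 7 erythroid markers (Hba-a1 and Hbb-bt highest, Slc4a1 lowest). The shares of melanocyte markers and of Schwann cell and glia markers are near that of protein-coding genes, and these counts alone do not show that a cell type was present. In bulk RNA, fewer cells of a type and less RNA per cell cannot be told apart, and the cells that gave the transcripts of a gene were not identified.

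The gene length behind the deposited FPKM sets every comparison between genes. The length that count and FPKM imply equalled, for all 8 genes, the sum of all distinct annotated exons in GENCODE release M21, in which bases shared by overlapping exons of different transcripts are counted repeatedly. Over the 25984 genes with a count and a reference length, 92.4% matched this sum within 2%, against 39.3% for merged exons and 38.5% for the longest transcript. The implied length was 1.38 times the longest transcript at the median. For Apoe it was 6511 bp, longer than the 3080 bp span of the gene itself and 4.62 times its longest transcript of 1408 bp. For Clu it was 3.12 times the longest transcript, for Lpl 2.82 times, for Apoc1 2.39 times, for Apod 2.11 times and for Pltp 1.79 times. For Abca1, with 2 annotated transcripts against 11 for Apoe, it was 1.03 times, below the median of 1.38, and for Abcg1 1.43 times. Compared with TPM from the longest transcript, TPM from the deposited FPKM therefore lowers Apoe most within this set. It raises Abca1, whose mean was 9.19 TPM from the deposited FPKM and 6.36 TPM with the longest transcript. TPM recomputed with the longest transcript is given for each gene below. Only lengths, matched by gene ID, were taken from M21, which is on GRCm38, while the deposited coordinates are on GRCm39.

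**Figure D1:**
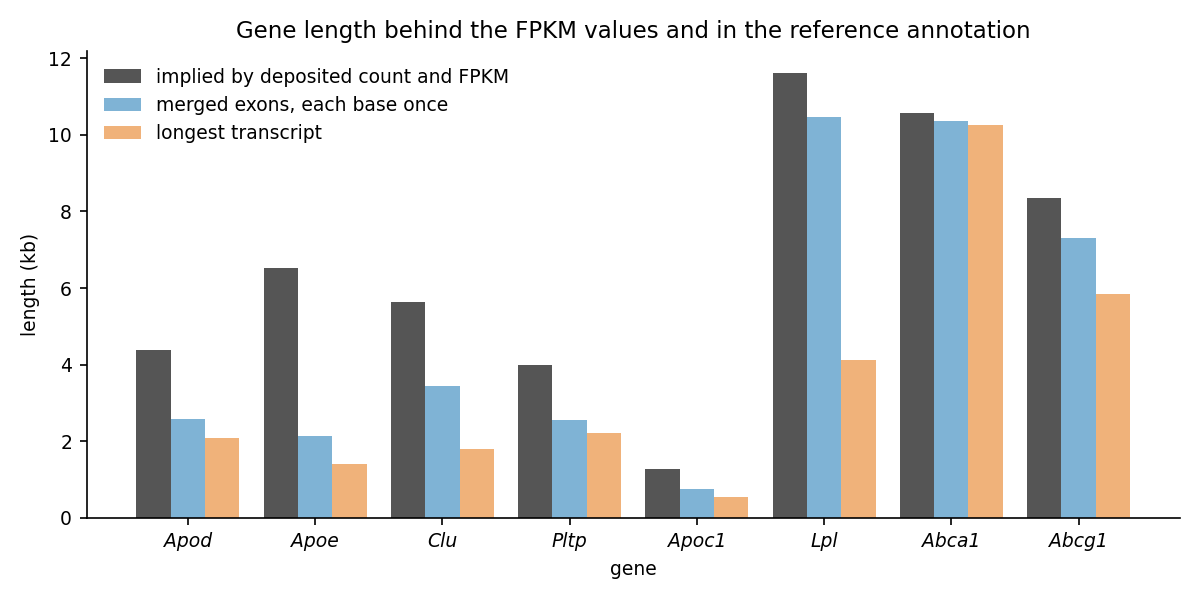
Length in kilobases behind the deposited FPKM (dark bars), of merged exons (blue) and of the longest transcript (orange) for each gene, from the deposited table and GENCODE M21. The implied length of Apoe, 6511 bp, is 4.62 times its longest transcript, while that of Abca1 is 1.03 times its own.

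Each of the 8 genes exceeded 1 TPM when mean log2(TPM + 1) was tested with limma, one-sided and with Benjamini-Hochberg adjustment over 27265 genes, as did 37.6% of all genes tested and 50.5% of the protein-coding ones. Against 10 TPM, 5 of 8 passed (Apod, Apoe, Clu, Pltp and Apoc1), as did 14.7% of all genes tested and 19.2% of the protein-coding ones. The median of the 8 mean levels was 31.8 TPM, that of all genes tested 2.24 TPM and that of protein-coding genes tested 4.55 TPM. The 8 genes were chosen with earlier results of these data known, so these comparisons with other genes are a description. The genes fell into a high trio, Apod, Apoe and Clu, with mean levels of 1036 TPM or more, and 5 genes between 4.37 and 35.0 TPM. Together the 8 genes took 2.81% of the counts in replicate 1 (95% Wilson interval 2.80 to 2.82%), 2.58% in replicate 2 (2.58 to 2.59%) and 2.30% in replicate 3 (2.29 to 2.30%).

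Among the particle proteins, Apod was highest in every library. Apod (ENSMUSG00000022548, chromosome 16, 31115010 to 31133626), the lipocalin, measured 8672, 9886 and 6741 TPM, or 8433 ± 1586 TPM, and 11991 ± 2267 TPM with the longest transcript. It was the 13th of all genes by mean TPM and the third by CPM, with 281694, 292341 and 195258 counts. Its spread was small: the SD of log2(TPM + 1) was 0.28, below the lower quartile of 0.30 over the 6690 genes with a mean of at least 10 TPM, whose median SD was 0.48. Replicate 2 was highest and replicate 3 lowest. The calls above 1 and 10 TPM ended when genes without any count were kept in the fit (limma, adjusted p = 1.0 for each, and at most 0.00276 under each other alternative). The summed level of the 10 fibroblast markers, mostly Coch, had the same order, at 13090, 13290 and 9547 TPM, as did their mean log2(TPM + 1), at 5.75, 5.83 and 5.66. Coch itself had another order and was highest in replicate 1, at 10205, 9157 and 4653 TPM. Otos, the second highest of these markers, was highest in replicate 3, at 2360, 3430 and 4508 TPM. The summed Schwann cell and glia markers, mostly S100b, at 8597, 6843 and 9751 TPM, had the reverse order of Apod. Their mean log2(TPM + 1), at 4.47, 3.32 and 4.45, was also lowest in replicate 2 but highest in replicate 1. The part of either list in the Apod level was not tested.

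Apoe (ENSMUSG00000002985, chromosome 7, 19430034 to 19433113) measured 3472, 1448 and 2284 TPM, or 2401 ± 1017 TPM. Replicate 1 was highest and replicate 2 lowest, a 2.40-fold range. With the longest transcript the level was 10557, 4571 and 7205 TPM, or 7445 ± 3000 TPM. Its SD of log2(TPM + 1), 0.63, lay above the median of 0.48 and below the upper quartile of 0.72 over genes with a mean of at least 10 TPM. The summed macrophage markers, mostly Lyz2, were also highest in replicate 1 and lowest in replicate 2, at 9010, 5794 and 6583 TPM. Their mean log2(TPM + 1), which weights the 18 markers equally, had another order, 5.18, 5.29 and 5.54, and was lowest in replicate 1. The Schwann cell and glia markers were lowest in replicate 2 by their sum, mostly S100b, at 8597, 6843 and 9751 TPM, and by their mean log2(TPM + 1), at 4.47, 3.32 and 4.45. The part of either list in the Apoe level was not tested.

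The distance between Apod and Apoe depended on the library and on the length used. Apod stood above Apoe in 3 of 3 libraries, by 2.50-, 6.83- and 2.95-fold in TPM (two-sided exact permutation test that flips the signs of the log2 differences, p = 0.25, adjusted p = 0.292 over 7 neighbouring pairs). A p of 0.25 is the lowest this test can give with 3 libraries. With the longest transcript the same ratios were 1.14, 3.12 and 1.35. The 2.73-fold change of the ratio between libraries does not depend on length.

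Clu (ENSMUSG00000022037, chromosome 14, 66205932 to 66218996), encoding the chaperone clusterin, stood at 1554, 825 and 730 TPM, or 1036 ± 451 TPM, and 2164 ± 890 TPM with the longest transcript. Replicate 1 was apart from the others, which differed little. Apoe exceeded Clu in every library, by 1.20 ± 0.42 on the log2(TPM + 1) scale (p = 0.25 by the exact permutation test, adjusted p = 0.292). Clu in turn exceeded the next gene, Pltp, by 4.84 ± 0.71 on the same scale, the largest step in the order of the 8 genes, also in every library (p = 0.25 by the exact permutation test, adjusted p = 0.292). The markers of supporting and non-sensory epithelium summed to 4029, 2755 and 2386 TPM and fell in the order of Clu. Their mean log2(TPM + 1), at 6.87, 6.43 and 5.92, did so too. Single markers differed: Cldn9 and Gjb6 had this order, Gjb2 and Krt18 were lowest in replicate 2, and Cdh1 had the reverse order. The part of these markers in the Clu level was not tested.

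Apoc1 (ENSMUSG00000040564, chromosome 7, 19423406 to 19426585), a small exchangeable apolipoprotein, lies 3448 bp from Apoe and stood far below it. Its level was 33.0, 17.9 and 34.9 TPM, or 28.6 ± 9.27 TPM (45.9 ± 14.7 TPM with the longest transcript), from 311, 154 and 293 counts, with replicate 2 lowest. The ratio of Apoe to Apoc1 was 105, 80.7 and 65.5 in TPM, and 204, 156 and 127 with the longest transcript.

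**Figure D2:**
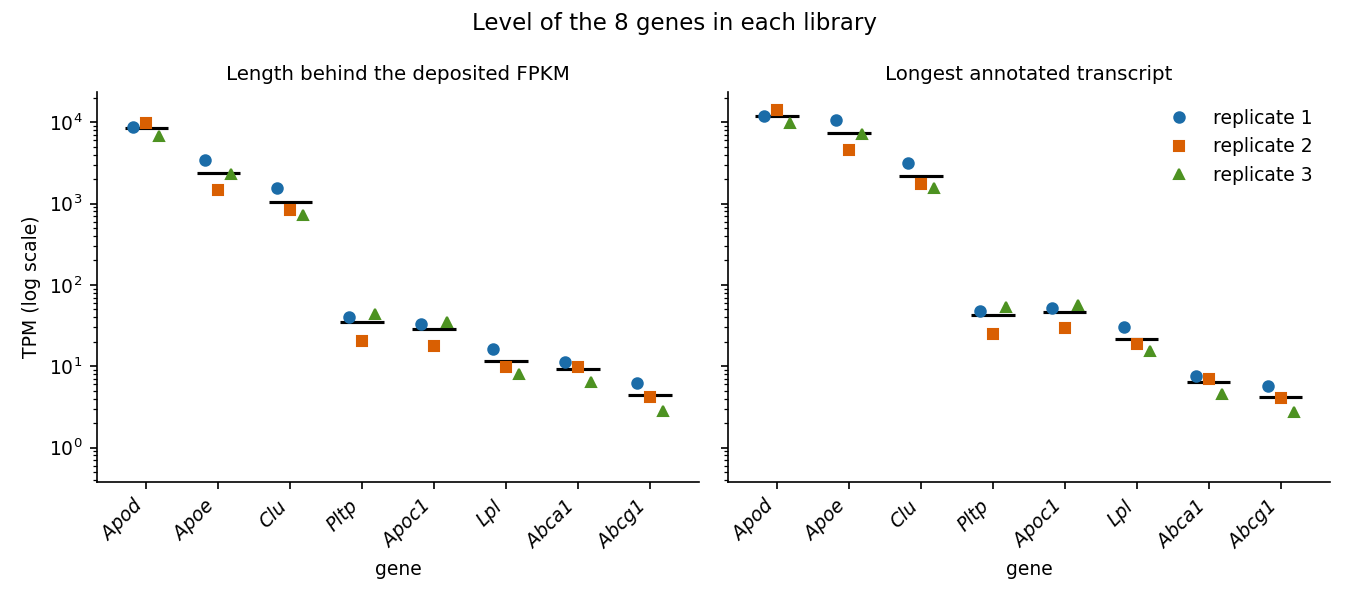
TPM on a log axis for each of the 8 genes in replicates 1 (circles), 2 (squares) and 3 (triangles), with the mean as a bar, using the length behind the deposited FPKM (left) or the longest transcript (right). Apod, Apoe and Clu stand well above the other 5 genes in every library on either length, and the gap between Apod and Apoe narrows on the right, where Apoe averages 7445 TPM.

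Of the genes acting on particles in the extracellular space, Pltp exceeded Lpl in TPM in every library, a difference that was not tested. In CPM Lpl stood at 76.7, 51.2 and 44.1 and Pltp at 64.8, 36.9 and 82.7, so Lpl was higher in replicates 1 and 2. Pltp (ENSMUSG00000017754, chromosome 2, 164681438 to 164699631), the phospholipid transfer protein, stood at 40.3, 20.6 and 44.1 TPM, or 35.0 ± 12.6 TPM, and 42.3 ± 15.1 TPM with the longest transcript. As for Apoe and Apoc1, replicate 2 was lowest. The gene overlaps Ctsa (43.0 TPM) by 1515 bp, and the sources used here do not say whether counting used strand, so some counts may belong to either gene. Pltp stood above Apoc1 by 0.27 ± 0.07 on the log2(TPM + 1) scale in every library (p = 0.25 by the exact permutation test, adjusted p = 0.292). With the longest transcript the order was reversed, at -0.13. The ratio of Pltp to Apoc1 differed between libraries by 1.10-fold, less than that of any other pair for which a ratio was computed. Against 10 TPM, Pltp passed limma's test with an adjusted p of 0.00866 and Apoc1 with one of 0.0140. Without replicate 1 neither call held (limma, adjusted p = 0.0667 and 0.103), and over all alternatives their adjusted p reached 0.248 and 0.285.

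Lpl (ENSMUSG00000015568, chromosome 8, 69333143 to 69360100), the lipase, stood at 16.4, 9.85 and 8.08 TPM, or 11.4 ± 4.40 TPM, from 1416, 773 and 621 counts. Replicate 1 was highest. Lpl stood below Apoc1 by 1.25 ± 0.64 on the log2(TPM + 1) scale in every library (p = 0.25 by the exact permutation test, adjusted p = 0.292), whereas in CPM, which takes no account of length, it stood above Apoc1 (57.3 ± 17.2 against 15.9 ± 5.35 CPM). Against 10 TPM Lpl did not pass limma's test (adjusted p = 1.0), and with the longest transcript, at 21.7 ± 7.82 TPM, it did (adjusted p = 0.0403, with a range from 0.000244 to 1.0 over all alternatives).

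The cholesterol exporters were the lowest of the set. Abca1 (ENSMUSG00000015243, chromosome 4, 53030787 to 53159895), whose promoter window is printed above, stood at 11.2, 9.89 and 6.49 TPM, or 9.19 ± 2.42 TPM, and 6.36 ± 1.59 TPM with the longest transcript. Lpl was higher than Abca1 in 2 of 3 libraries, by 0.26 ± 0.26 on the log2(TPM + 1) scale (p = 0.5 by the exact permutation test, adjusted p = 0.5), so their order was not settled on this length. With the longest transcript Lpl was higher in every library, by 4.03-, 2.73- and 3.41-fold in TPM, or 1.59 on the log2(TPM + 1) scale. Abcg1 (ENSMUSG00000024030, chromosome 17, 31276649 to 31336962) measured 6.15, 4.15 and 2.82 TPM, or 4.37 ± 1.67 TPM, and 4.20 ± 1.52 TPM with the longest transcript. For either exporter replicate 1 was highest and replicate 3 lowest. The summed markers of supporting and non-sensory epithelium, given above for Clu, had the same order, and the summed erythroid markers, at 21791, 29998 and 51507 TPM, the reverse one, and the part of either was not tested. Abca1 exceeded Abcg1 in every library by 0.94 ± 0.16 on the log2(TPM + 1) scale (p = 0.25 by the exact permutation test, adjusted p = 0.292). Abcg1 passed limma's test against 1 TPM with the largest adjusted p of the 8 genes, 0.0228. That call ended without replicate 1 (limma, adjusted p = 0.134), without replicate 2 (0.0704), with a pseudocount of 5 (0.0624) and without a filter on low counts (0.0870), within a range from 0.000215 to 0.134 over all alternatives.

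The 8 genes did not follow 1 order across libraries. Apoe, Pltp and Apoc1 were lowest in replicate 2, while Apod was highest there. Clu, Lpl, Abca1 and Abcg1 were highest in replicate 1 and lowest in replicate 3. The largest fall below a gene's mean was that of Pltp in replicate 2, at -0.67 on the log2(TPM + 1) scale, and the largest rise that of Clu in replicate 1, at 0.67. With 3 libraries such orders are a description. Of 1802 protein-coding genes with a mean of at least 50 TPM, 163 stayed within 0.2 of Apod and 38 within 0.2 of Apoe in every library, after centring log2(TPM + 1) on its mean. The nearest to Apod were Dynlt1b, Smim19 and Psmg2, which differed by at most 0.00879, 0.00986 and 0.0283, and the nearest to Apoe were Ttc1, Yif1b and Pea15a, at most 0.0247, 0.0540 and 0.0650.

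**Figure D3:**
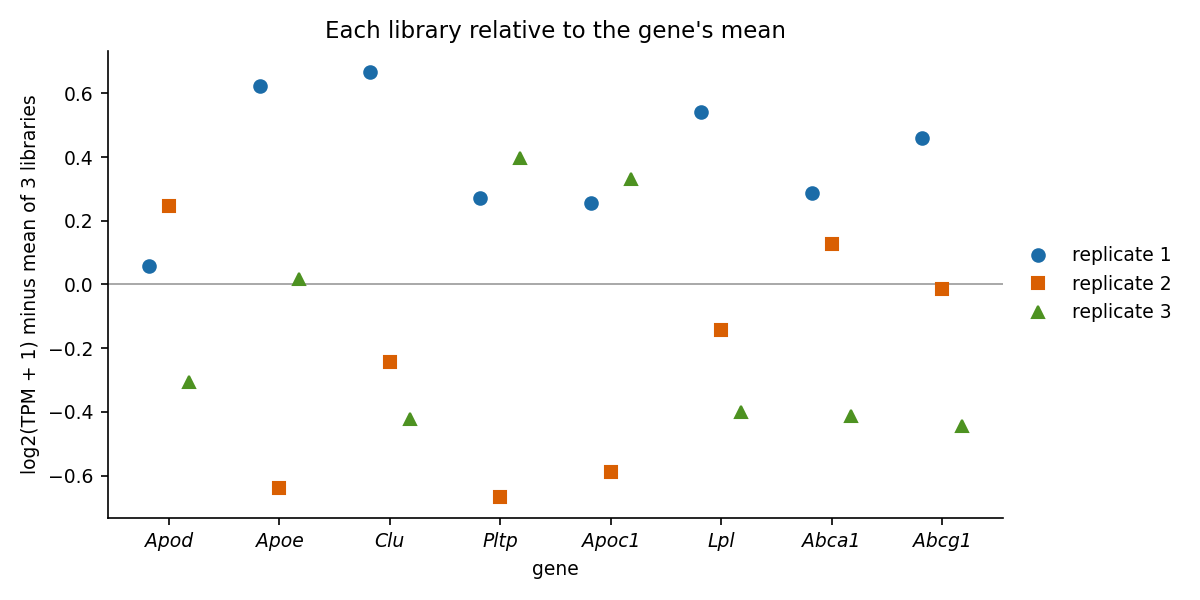
Log2(TPM + 1) of each gene in each library minus the gene's mean over the 3 libraries. Apoe, Pltp and Apoc1 share a low replicate 2, between -0.59 and -0.67, and Clu, Lpl, Abca1 and Abcg1 share a low replicate 3, while Apod varies least.

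The other genes of lipid transport were read from 9 lists with 118 genes in all. Of these, 66 stood above 1 TPM and 22 above 10 TPM by limma's test. Of all genes tested, 37.6% and 14.7% did, and of the protein-coding ones 50.5% and 19.2%. The median level was 6.27 TPM, against 2.24 TPM for all genes tested and 4.55 TPM for the protein-coding ones. The other apolipoproteins were low. Of 11, only Apoa4, known from intestinal particles, stood above 1 TPM (10.1 ± 4.02 TPM, from 193, 119 and 76 counts), and 2 had an unadjusted p under 0.05. Apof stood at 1.65, 3.62 and 12.1 TPM and did not pass, nor did Apoa1 (2.56 ± 1.16 TPM) and Apoh (0, 2.89 and 0 TPM). Apob, the scaffold of very low density and low density lipoproteins, had 1 count in 1 library, and Apoa2, Apoc3 and Apoa5 had none.

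Apoe and Apoc1 lie in a gene cluster on chromosome 7, and their neighbours were far below Apoe. Apoc2, the activator of lipoprotein lipase, had 0, 11 and 0 counts and Apoc4 0, 8 and 7, and both overlap Apoc2l, so their counts are uncertain. Of 5 genes that flank the cluster, 4 stood above 1 TPM: Bcam (17.4 ± 5.34 TPM), Nectin2 (13.1 ± 8.71 TPM), Tomm40 (12.0 ± 10.6 TPM) and Clptm1 (9.23 ± 4.55 TPM). Relb did not pass (2.91 ± 2.00 TPM). Tomm40, a mitochondrial import channel that lies 2124 bp from Apoe, stood at 9.39, 2.96 and 23.6 TPM. Like Apoe it was lowest in replicate 2, but unlike Apoe it was highest in replicate 3.

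Of 13 other lipid transporters of the ABC family, 3 stood above 1 TPM: Abca2 (15.4 ± 8.37 TPM), known from myelinating cells, Abca5 (6.44 ± 2.29 TPM) and Abca3 (5.29 ± 3.28 TPM). Abca9 followed at 6.49, 1.98 and 0.126 TPM and did not pass. Abcg5 and Abcg8, which together form a sterol exporter of liver and gut, had no count. By mean TPM, Abca2 thus stood above Abca1 and Abcg1, a difference that was not tested. By library Abca2 measured 12.2, 9.16 and 24.9 TPM, against 11.2, 9.89 and 6.49 TPM for Abca1, which was higher in replicate 2.

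Of 17 genes in the list of lipoprotein receptors and their regulators, 10 stood above 1 TPM. The highest was Bsg (616 ± 71.4 TPM), a membrane glycoprotein that is not itself a lipoprotein receptor, followed by Mylip (31.5 ± 7.73 TPM), a ubiquitin ligase that targets lipoprotein receptors, and the receptors Sorl1 (21.5 ± 4.30 TPM) and Lrp1 (18.0 ± 7.37 TPM). Trem2, a lipid-sensing receptor of macrophages that binds apolipoprotein E, stood at 15.1, 9.21 and 28.7 TPM.

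Of 13 lipases and their partners, 5 stood above 1 TPM. Lcat, which esterifies cholesterol on high density lipoprotein, was highest (74.0 ± 18.2 TPM), followed by the monoglyceride lipase Mgll (42.5 ± 15.6 TPM), the triglyceride lipase Pnpla2 (22.1 ± 6.17 TPM) and the lysosomal lipase Lipa (10.1 ± 5.12 TPM). Gpihbp1, which anchors lipoprotein lipase on capillary endothelium, had 1, 0 and 0 counts. Of the 10 endothelial markers, Emcn (394, 462 and 173 counts) and Kdr (334, 561 and 435 counts) stood above 1 TPM, and the lowest, Tie1, had no count.

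Of 13 sterol-sensing transcription factors and partners, 8 stood above 1 TPM. Srebf1 was highest (31.3 TPM in mean, and 32.6, 19.7 and 41.6 TPM by library), followed by Insig2 (17.6 ± 6.74 TPM), Nr1h2 (11.9 ± 6.26 TPM) and Srebf2 (9.71 ± 2.13 TPM). Of the LXR genes, Nr1h2 stood at 13.9, 4.83 and 16.8 TPM and Nr1h3 at 3.43, 3.37 and 7.70 TPM. Nr1h2 was lowest in replicate 2, as were Apoe, Pltp and Apoc1. Lpl, Abca1 and Abcg1 were lowest in replicate 3, and no relation was tested over 3 libraries.

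Most genes of cholesterol synthesis and most intracellular carriers stood above 1 TPM. Of 20 synthesis genes, 17 stood above 1 TPM, led by Fdps (108 ± 27.8 TPM), Pmvk (94.4 ± 23.1 TPM), Nsdhl (50.1 ± 31.5 TPM) and Fdft1 (47.0 ± 17.9 TPM, a gene that overlaps the far more abundant Ctsb). Of 18 carriers and transfer genes, 16 did, led by the fatty acid binding protein Fabp3 (238 ± 21.5 TPM), the lysosomal cholesterol carrier Npc2 (139 ± 21.9 TPM), Scp2 (122 ± 28.1 TPM) and the glial Fabp7 (55.6 ± 7.34 TPM). Among 8 other lipocalins, relatives of Apod, Ptgds (28330 ± 6104 TPM) and the retinol carrier Rbp4 (359 ± 102 TPM) passed, while Lcn12 (6.54 ± 8.13 TPM) and Lcn8 (4.91 ± 3.53 TPM) did not. Apod stood at 0.375, 0.369 and 0.192 of the Ptgds level in TPM, and Ptgds was highest in replicate 3, where Apod was lowest.

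**Figure D4:**
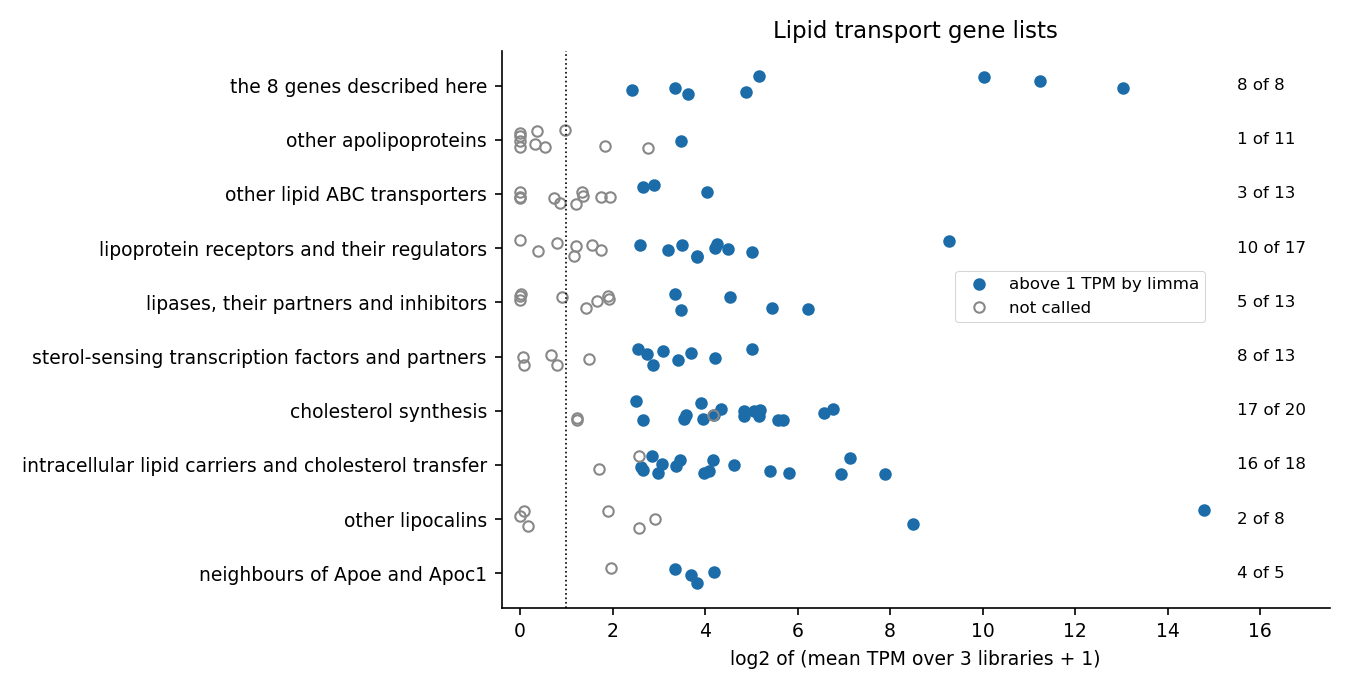
Mean level over the 3 libraries, as log2 of TPM + 1, of each gene in the lipid transport lists (rows), with filled points for genes above 1 TPM by limma's test and open points for the others; the dotted line marks 1 TPM and the figures at the right count the filled points. All 8 genes described here are filled, and the filled shares of the other lists range from 1 of 11 other apolipoproteins to 16 of 18 carriers and transfer genes, against 37.6% of all genes tested and 50.5% of the protein-coding ones.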

How the data were processed

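Messenger RNA was measured in 3 libraries of 1 group. Per the file headers, each library has a column of raw counts and one of FPKM in the deposited table. Per the submitters' processing notes, HISAT2, StringTie, edgeR and the build GRCm39 were used; the sources used here do not give versions, roles, strand setting or the handling of reads that match several genes.

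The deposited FPKM values were rescaled to TPM, and the length they use was derived from count and FPKM. The 27265 genes counted in any library were tested with limma 3.58.1 in R 4.3.3 on log2(TPM + 1), which understates low values, against 1 and 10 TPM (one-sided, intercept-only, mean-variance trend, Benjamini-Hochberg, threshold 0.05). Steps between neighbouring genes were tested by exact sign-flip permutation. Alternatives used edgeR 4.0.16 (quasi-likelihood F statistic against the fixed level) and DESeq2 1.42.0 on counts, other pseudocounts, filters, scalings and lengths, and left-out libraries. The tests across genes were checked on simulated data with the same spread setting for every gene, whereas the spread of the real genes differed. The outcome is not given here.

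Total counts were 18460546, 15086854 and 14095521 in replicates 1, 2 and 3. The 8 genes and the lists were chosen with earlier results of these data known. The text names all 8 genes, the 4 highest genes of each lipid list, the cluster neighbours, a fixed set of single genes, the 2 highest and the lowest gene of each marker list, and the 3 nearest profiles to Apod and Apoe. Abcg5, Abcg8, Apob, Apoa2, Apoc3, Apoa5, Idi1, Sqle, Lss and Dhcr7 were named after their values were seen. Some results are not reported here.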

Additional observations from a re-analysis of the deposited data

How the results depend on the processing

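No paired analysis was possible because the labels give 1 group. The planned length from a reference of the same build was not run, because the reference annotation is on GRCm38; lengths of GENCODE M21 matched by gene ID were used instead, chosen after seeing the data. All 8 genes stood above 1 TPM except without replicate 1 or 2 or with a pseudocount of 5 (7, Abcg1 lost) and without a filter on low counts (6, Apod and Abcg1 lost). The count above 10 TPM was 5, and 3 to 5 when 1 library was left out, 6 in CPM and with the longest transcript, 3 with DESeq2 and 1 without a filter. In that unfiltered fit, with 29915 genes at 0 in every library, limma gave Apod an adjusted p of 1.0 and called 6924 genes above 1 TPM and 1169 above 10 TPM, against 10264 and 4017. Lists above 1 TPM changed there to 0 other ABC transporters, 4 receptors, 3 lipases, 3 sterol-sensing genes, 13 of cholesterol synthesis, 13 carriers, 1 other lipocalin and 1 cluster neighbour; the other apolipoproteins numbered 1. The cause was not tested.

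Other apolipoproteins above 1 TPM numbered 2, not 1, with a pseudocount of 0.1, among genes counted in all 3 libraries, in CPM, with edgeR, with DESeq2 and with either reference length, and 1 to 2 when 1 library was left out. Other ABC transporters numbered 5 in CPM. Other lipocalins numbered 4 with edgeR and with DESeq2, and 2 to 3 when 1 library was left out; ABC transporters numbered 2 to 3. Pltp minus Apoc1 reversed to -0.13 with the longest transcript, and Apoc1 minus Lpl to -1.80 in CPM.

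Mean CPM was 16163 for Apod, 6765 for Apoe, 2514 for Clu, 61.5 for Pltp, 15.9 for Apoc1, 57.3 for Lpl, 42.2 for Abca1 and 15.7 for Abcg1. With the longest transcript, mean TPM was 11991 for Apod, 7445 for Apoe, 2164 for Clu, 45.9 for Apoc1, 21.7 for Lpl and 6.36 for Abca1. With merged exons it was 11534 for Apod, 5878 for Apoe and 39.3 for Apoc1. Against 10 TPM, Lpl changed side without replicate 1 and with merged exons (limma, adjusted p = 1.0 for each; 0.856 to 1.0 when 1 library was left out), and Abca1 without replicate 3 (adjusted p = 1.0), none of them past the threshold. Set against 10 CPM, Abca1 (adjusted p = 0.000581) and Abcg1 (adjusted p = 0.276) changed side, and of this pair only Abca1 passed. Lpl also passed limma's test there (adjusted p = 0.000244), while Apoc1 no longer did (adjusted p = 0.2855).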

Other observations

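Idi1, an enzyme of isoprenoid synthesis, measured 2.31, 48.3 and 0.346 TPM in the order of the replicates (120, 2283 and 16 counts) and did not pass limma's test against 1 TPM (adjusted p = 0.202), although its mean of 17.0 TPM exceeded that of Sqle (14.5 ± 4.84 TPM), which did pass (adjusted p = 0.000413). Of the 3 genes of the cholesterol synthesis list that did not pass, Idi1 was the one with a high mean, and Lss (1.33 ± 0.394 TPM) and Dhcr7 (1.36 ± 0.347 TPM) were low in every library.

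By rank among genes with a count, the choice of length moved Apoe from 48th to 14th and Clu from 123rd to 49th, and Abca1 from 7051st to 9265th.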
